A study of Mus musculus with 4 samples.

Results

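Platelet-derived growth factors (PDGFs) and their receptors are described here in the mouse digit before and after amputation. The 7 genes were taken by symbol from the gene list of the deposited matrices, which names 32285 genes, and all 7 were found. They are the 4 ligand genes Pdgfa, Pdgfb, Pdgfc and Pdgfd, the 2 receptor genes Pdgfra and Pdgfrb, and the receptor-like gene Pdgfrl. The choice used no measured value. The tissue came from wild-type FVB/NJ mice 8 weeks old. It was made into 4 single-cell RNA libraries: 1 of unamputated digits and, after amputation through the middle phalanx (P2), 1 at 12 days post-amputation (dpa), 1 at 17 dpa and 1 at 28 dpa. The labels say that male and female animals were pooled, name no transgene or drug, and do not say how many animals entered a library. Cells were freed from hand-dissected tissue by trypsin and collagenase I, and after lysis of red cells those that excluded propidium iodide were taken as live by sorting. A library therefore holds only cells that came through digestion and the sort.

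PDGF ligands are secreted dimers that bind receptor tyrosine kinases on neighbouring cells. PDGF-A, PDGF-B and PDGF-C bind the alpha receptor encoded by Pdgfra, and PDGF-B and PDGF-D bind the beta receptor encoded by Pdgfrb. PDGF-C and PDGF-D are secreted as latent forms whose CUB domain must be cut off by a protease before they can bind. In many tissues the alpha receptor is a label of fibroblasts, and PDGF-B from endothelium draws pericytes, which carry the beta receptor, to small vessels. Pdgfrl encodes a protein that resembles the ligand-binding part of the receptors and lacks a kinase domain.

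In coordinates of GENCODE M21 on GRCm38, Pdgfa (ENSMUSG00000025856) is on the minus strand at chr5:138976014-138997370. Pdgfb (ENSMUSG00000000489) is on the minus strand at chr15:79995874-80014977. Pdgfc (ENSMUSG00000028019) is on the plus strand at chr3:81036416-81214040, and Pdgfd (ENSMUSG00000032006) on the plus strand at chr9:6168584-6378850. Pdgfra (ENSMUSG00000029231) is on the plus strand at chr5:75152292-75198215. Pdgfrb (ENSMUSG00000024620) is on the plus strand at chr18:61045150-61085061, and Pdgfrl (ENSMUSG00000031595) on the plus strand at chr8:40926212-40990785. All 7 are protein-coding.

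Of the 7 genes, 5 overlap a gene on the opposite strand that is also in the files: 6330403L08Rik for Pdgfa, Gm41361 for Pdgfb, Gm16000 for Pdgfc, Ddi1 for Pdgfd and Gm42802 for Pdgfra. Over all kept cells these neighbours held from 0.0726% (Gm42802) to 5.04% (Gm41361) as many UMIs as the member they overlap. How the counting treated strand is not given in the sources used here, so reads in the shared stretches cannot be told apart.

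The promoters of Pdgfa, Pdgfd and Pdgfra are printed as those of a ligand found in most cell classes, a ligand whose level differed after amputation, and a receptor held by 3 classes. Each is 300 bases, from 250 before to 50 after a RefSeq start site on GRCm38.p6, written 5′ to 3′ on the strand of the gene. Capitals mark a TATA box (TATAAA) or a GC box (GGGCGG), searched on both strands, so that CCGCCC is a GC box on the other strand.
Pdgfa, chr5:138994895-138995194, minus strand: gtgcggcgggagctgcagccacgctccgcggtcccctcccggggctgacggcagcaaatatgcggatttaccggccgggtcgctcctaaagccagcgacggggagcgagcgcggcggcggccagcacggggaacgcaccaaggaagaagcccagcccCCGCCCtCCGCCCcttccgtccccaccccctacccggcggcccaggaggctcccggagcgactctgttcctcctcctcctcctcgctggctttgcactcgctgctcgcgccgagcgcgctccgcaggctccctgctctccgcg
Pdgfd, chr9:6168236-6168535, plus strand: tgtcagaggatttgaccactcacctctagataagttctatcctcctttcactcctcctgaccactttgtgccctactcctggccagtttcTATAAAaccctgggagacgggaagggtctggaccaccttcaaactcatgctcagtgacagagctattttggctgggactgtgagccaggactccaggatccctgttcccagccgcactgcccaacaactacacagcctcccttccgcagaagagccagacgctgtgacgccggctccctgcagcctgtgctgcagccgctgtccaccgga
Pdgfra, chr5:75152001-75152300, plus strand: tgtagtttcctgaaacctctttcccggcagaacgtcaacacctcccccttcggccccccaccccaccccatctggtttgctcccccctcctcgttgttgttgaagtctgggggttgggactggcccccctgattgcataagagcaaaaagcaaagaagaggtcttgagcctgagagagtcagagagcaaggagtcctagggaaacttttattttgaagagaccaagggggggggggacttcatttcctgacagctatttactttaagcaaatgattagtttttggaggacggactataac

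The printed Pdgfa promoter held 37 CpG dinucleotides and 73.3% G and C. That of Pdgfd held 8 CpG and 56.7% G and C, and that of Pdgfra 5 CpG and 51.0%. Across the 32851 promoters of that table the median was 7 CpG (quartiles 3 and 20) and 52.7% G and C (quartiles 45.7 and 61.7). The table matched 4 of the 7 members and gave 5 promoters, 2 of them for Pdgfa. The start of the printed Pdgfa promoter lies 2426 bases inside the gene as GENCODE draws it. The other Pdgfa promoter held 24 CpG and 1 GC box, and the Pdgfc promoter held 8 CpG and neither motif. TATAAA was in 13.6% of all promoters and GGGCGG in 35.7%. CCAAT, also searched on both strands, was in 37.4% of all promoters and in none of these 5. A match of letters is a description of the window and not a site of binding.

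The 4 libraries held 92313847 to 197140774 UMIs (unique molecular identifiers, 1 per captured transcript) over 8813 to 16045 barcodes, and 6510 to 10399 cells each were kept, 34947 in all. Median UMIs per kept cell were 11600.0, 9544, 8501 and 6657 in the unamputated, 12, 17 and 28 dpa libraries. Pairs of libraries shared 19 to 87 barcodes, at most 0.570% of either. Against the label of pooled sexes, cells with at least 2 UMIs of 4 Y-linked genes and none of Xist made up 77.8%, 58.3% and 47.0% of the unamputated, 17 dpa and 28 dpa libraries. They were 0 of 6510 cells at 12 dpa, which allows up to 0.0461%, and 54.2% of that library had at least 2 UMIs of Xist and none of the Y-linked genes. Cells of that last kind numbered 1, 0 and 0 in the unamputated, 17 dpa and 28 dpa libraries, and the remaining cells of each library were called neither way. Sex and time after amputation therefore cannot be told apart at 12 dpa. Clustering, from which the 7 genes and a list of 65 PDGF pathway genes were left out, gave 31 clusters. Marker genes named 26 of them as 15 cell classes, each called "like" its cell type, and 5 clusters with 15.2% to 22.8% of the cells of a library stayed unnamed. No member was a marker. Fibroblast-like cells had all 10 of their markers above 20 CPM in every library and pericyte-like cells all 8. The least complete were T or NK-like cells, with 6 of 9 at 12 dpa, and dendritic-like cells, with 5 of 7 in the unamputated library, and macrophage or monocyte-like cells had 10 of 12 at 28 dpa.

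Levels are UMIs of the gene per 1000000 UMIs of the class (CPM), summed over the cells of a class in 1 library, for classes of at least 50 cells. Brackets hold UMI counts, where these are named, or 95% intervals: Clopper-Pearson for shares of cells and exact binomial for ratios, both covering counting error only. Bars in the figures are exact Poisson intervals of levels, with the same limit. With 1 library per time there is no replicate, no test and no p-value, and no difference has a check against the spread between animals. The level of each gene is compared between classes and libraries and not with the level of another gene. Osteoblast-like cells numbered 13 at 12 dpa and have no level there, and lymphatic endothelial-like cells have levels in the unamputated and 12 dpa libraries.

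Pdgfra, the alpha receptor, was held by 3 connective tissue classes. In fibroblast-like cells its level was 305, 234, 328 and 261 CPM in the unamputated, 12, 17 and 28 dpa libraries. In tenocyte-like cells, which resemble tendon cells, it was 167, 141, 218 and 147 CPM in the same order. In osteoblast-like cells, which resemble bone-forming cells, it was 117 CPM in the unamputated library, 193 at 17 dpa and 164 at 28 dpa. The ranges over libraries of fibroblast-like (234 to 328) and tenocyte-like cells (141 to 218) did not overlap, and those of tenocyte-like and osteoblast-like cells (117 to 193) did. Every other named class had a mean of at most 3.82 CPM, reached in vascular endothelial-like cells. Together the 3 classes held nearly all Pdgfra UMIs: fibroblast-like cells held 54.9%, 27.4%, 68.6% and 81.5% in the unamputated, 12, 17 and 28 dpa libraries, and tenocyte-like cells 36.6%, 70.6%, 20.6% and 11%. Beside these shares, tenocyte-like cells held 13.9%, 38.9%, 12.9% and 7.26% of all UMIs of kept cells, and fibroblast-like cells 11.4%, 9.10%, 28.5% and 30.3%.

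Before thinning, at least 1 Pdgfra UMI was found in a share of fibroblast-like cells of 90.8%, 76.2%, 81.7% and 79.0% in the unamputated, 12, 17 and 28 dpa libraries, at median depths of 18021, 10807, 11468 and 8644 UMIs. In neutrophil-like cells, which should lack the gene, the share was 0.711% in the unamputated library and 2.01% at 17 dpa, at 7189 and 5681 UMIs. After every cell was thinned to 2000 UMIs, the fibroblast-like share was 43.7% [40.3 to 47.1], 32.7% [28.8 to 36.8], 42.7% [40.4 to 45.0] and 39.9% [37.9 to 41.9]. Thinning left out 11, 14, 40 and 56 shallower cells. The 12 dpa interval lay below the other 3, and 12 dpa was also the lowest library by CPM. Cluster 11, where Pdgfra was 348 to 383 CPM, held 319 of 865 fibroblast-like cells in the unamputated library and 29 of 568 at 12 dpa. Within cluster 17 the log2 ratio at 12 dpa was -0.39 and within cluster 27 -0.13. The part of the mix of clusters was not tested.

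Pdgfrb, the beta receptor, was highest in cells of the vessel wall. Pericyte-like cells had 990, 932, 1164 and 954 CPM in the unamputated, 12, 17 and 28 dpa libraries. Vascular smooth muscle-like cells had 465, 483, 482 and 398 CPM. Cluster 14, which stayed unnamed and was led by Id4, Ifitm1 and the pericyte marker Rgs5, had 695, 711, 699 and 649 CPM. The ranges of these 3 did not overlap, so the order from pericyte-like cells to cluster 14 to vascular smooth muscle-like cells held in each library. Tenocyte-like cells followed at 125 to 167 CPM, osteoblast-like cells at 104 to 176 and fibroblast-like cells at 75.6 to 148, and these 3 ranges overlapped. Schwann-like cells had a mean of 19.3 CPM, and the other named classes at most 10.4. After thinning, 82.2% to 86.0% of pericyte-like cells had a Pdgfrb UMI, against 0.243% and 0.699% of neutrophil-like cells. Unthinned, the pericyte-like shares were 93.6% to 97.6% and the neutrophil-like 2.37% and 3.36%.

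The 2 receptors overlapped in connective tissue and not in the vessel wall. Pericyte-like cells had 0.485 to 4.06 CPM of Pdgfra. Among fibroblast-like cells thinned to 2000 UMIs, a UMI of both receptors was found in 8.55%, 8.66%, 9.17% and 7.05% of cells in the unamputated, 12, 17 and 28 dpa libraries. The products of the 2 single shares were 7.93%, 8.02%, 9.40% and 6.32%, each within the 95% Clopper-Pearson interval of the share found ([6.76 to 10.6], [6.46 to 11.3], [7.88 to 10.6] and [6.05 to 8.16]). In tenocyte-like cells both receptors were found in 5.84% to 11.1% of thinned cells.

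Pdgfrl was highest in tenocyte-like cells, at 319.5, 325, 369.8 and 505 CPM in the unamputated, 12, 17 and 28 dpa libraries. Fibroblast-like cells had 164, 146, 187 and 145 CPM. Osteoblast-like cells had 121 CPM in the unamputated library, 142 at 17 dpa and 154 at 28 dpa. The tenocyte-like range lay above all others, and those of fibroblast-like and osteoblast-like cells overlapped. Pericyte-like cells had 57.4 to 85.3 CPM, vascular smooth muscle-like cells 25.2 to 45.8 and Schwann-like cells 16.7 to 23.6. Keratinocyte-like and endothelial-like classes had means of at most 5.36 CPM. The tenocyte-like level was highest at 28 dpa, where the log2 ratio to the unamputated library was 0.66 [0.59 to 0.72], below the 2-fold used here for a call. Of the tenocyte-like clusters, cluster 15 (led by C1qtnf3 and Fmod) went from 309 to 578 CPM and cluster 20 (led by Chad and Comp) from 359 to 282.

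**Figure D1:**
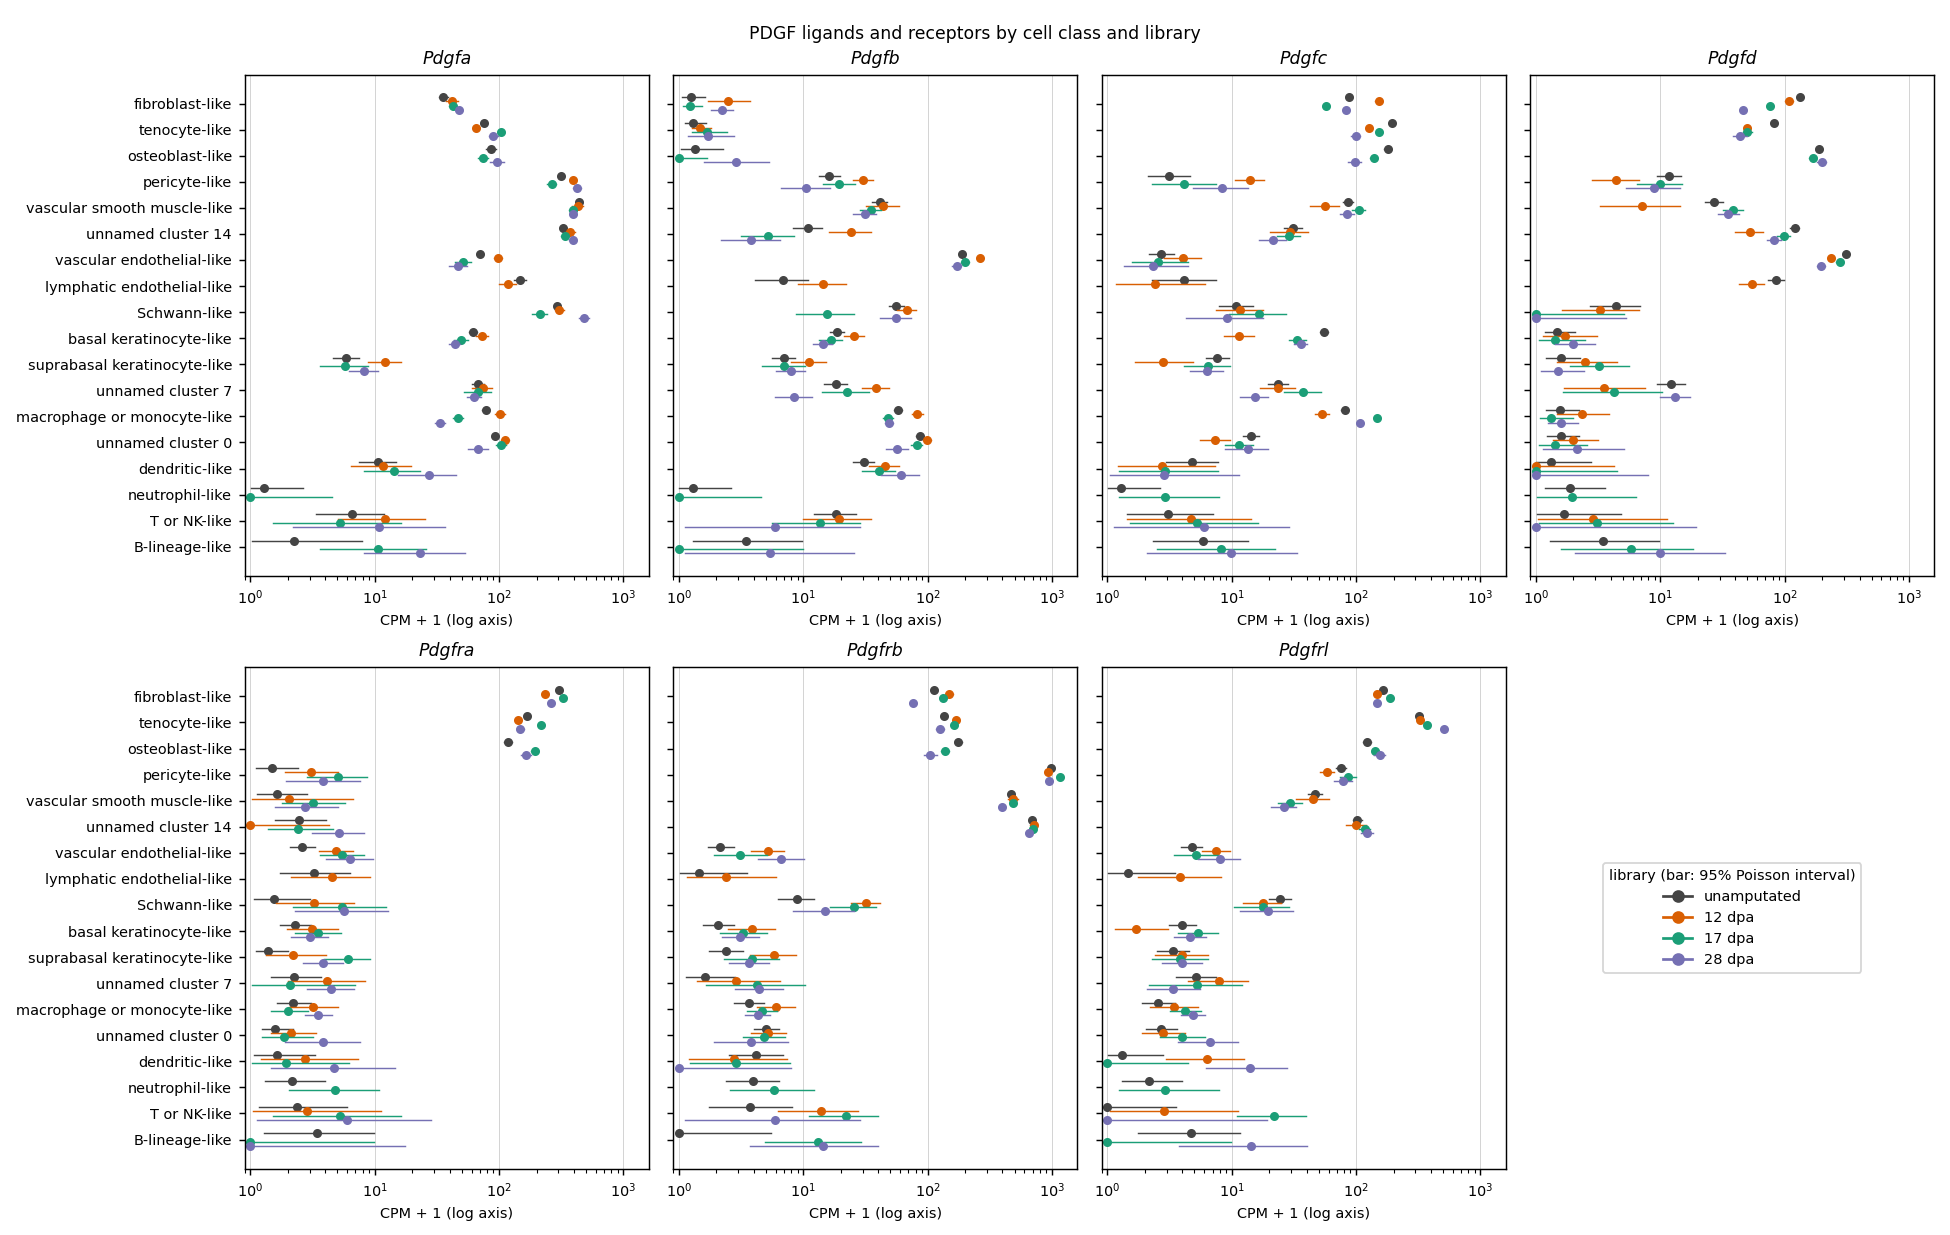
Level of each gene (x axis: CPM plus 1, log axis) in the 15 named cell classes and unnamed clusters 0, 7 and 14 (y axis) where these had at least 50 cells, with 1 point per library and its 95% Poisson interval as a bar. Pdgfra sat above 100 in fibroblast-like, tenocyte-like and osteoblast-like cells and below 20 in every other class, while Pdgfa had means of at least 41.0 in all of those plotted but the dendritic-like, B-lineage-like, T or NK-like, neutrophil-like and suprabasal keratinocyte-like cells.

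Pdgfa, a ligand of the alpha receptor, was detected in most classes. Vascular smooth muscle-like cells had 442, 427, 389 and 394 CPM in the unamputated, 12, 17 and 28 dpa libraries. Pericyte-like cells had 313, 392, 263 and 420.3 CPM, and cluster 14 had 328, 369, 336 and 389. Schwann-like cells, which resemble the glia of peripheral nerve, had 291, 303, 211 and 480.4 CPM. The ranges of these 4 overlapped, so their order was not fixed over libraries. Lymphatic endothelial-like cells followed with 147 and 117 CPM in the unamputated and 12 dpa libraries. Means of 56.1 to 84.7 CPM were found in osteoblast-like, tenocyte-like, vascular endothelial-like, macrophage or monocyte-like and basal keratinocyte-like cells, and 41.0 in fibroblast-like cells. Only 1 Pdgfa UMI was found in neutrophil-like cells of the unamputated library and none in those of 17 dpa. No class held more than 24.7% of the Pdgfa UMIs of a library, a share that tenocyte-like cells reached at 12 dpa. They also made up 24.7% of the cells of that library, and their share of all its UMIs, given above for Pdgfra, was larger.

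Pdgfb, a ligand of both receptors, was highest in vascular endothelial-like cells, at 188, 261, 199 and 171 CPM in the unamputated, 12, 17 and 28 dpa libraries. Macrophage or monocyte-like cells had 57.1, 81.6, 47.2 and 47.7 CPM, and the unnamed myeloid cluster 0, led by Acp5 and Clec4e, had 85.1, 97.7, 81.2 and 56.2. The endothelial range lay above both myeloid ranges, which overlapped each other. Schwann-like cells had 55.0, 66.9, 14.5 and 54.7 CPM. Fibroblast-like, tenocyte-like and osteoblast-like cells, the classes with Pdgfra, had means of at most 0.790 CPM. Within the endothelium, cluster 5 (led by Adgrl4 and Prnd) had 257, 329.8, 276 and 233 CPM and cluster 4 (led by Selp and Vwf) 78.7, 102, 96.1 and 100.2, so cluster 5 was above cluster 4 in all 4 libraries. After thinning, 26.5% to 30.5% of vascular endothelial-like cells had a Pdgfb UMI (46.4% to 65.9% before), against at most 0.255% of fibroblast-like cells (1.23% before).

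Pdgfd, a ligand of the beta receptor, shared the endothelium with Pdgfb. Vascular endothelial-like cells had 310.3, 236, 276 and 196 CPM in the unamputated, 12, 17 and 28 dpa libraries. Osteoblast-like cells had 189 CPM in the unamputated library, 168 at 17 dpa and 197 at 28 dpa, and the lower end of the endothelial range met the upper end of theirs. Fibroblast-like cells had 132, 107, 75 and 45.3 CPM. Tenocyte-like cells had 81.1, 48.8, 49.2 and 42.7 CPM. In both of these classes the unamputated library was the highest. Macrophage or monocyte-like cells, which held Pdgfb, had at most 1.33 CPM of Pdgfd, and Schwann-like cells at most 3.37. In thinned vascular endothelial-like cells both ligands were found in 10.3% [8.77 to 12.1] of cells of the unamputated library, where the product of the single shares was 8.46%, and in 9.36% [7.36 to 11.7], 10.4% [7.83 to 13.4] and 7.37% [5.29 to 9.94] at 12, 17 and 28 dpa, with products of 8.08%, 9.19% and 6.98%. The product lay below the interval in the unamputated library and within it in the other 3.

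Pdgfc, a ligand of the alpha receptor, was spread over connective tissue, macrophages and epidermis. Tenocyte-like cells had 192, 125, 152 and 98.1 CPM in the unamputated, 12, 17 and 28 dpa libraries. Osteoblast-like cells had 178 CPM in the unamputated library, 137 at 17 dpa and 96.7 at 28 dpa. Macrophage or monocyte-like cells had 79.8, 52.4, 146 and 106 CPM, and fibroblast-like cells 86.9, 151, 56.1 and 81.8. The ranges of these 4 classes overlapped. Vascular smooth muscle-like cells had 55.4 to 104 CPM, whereas pericyte-like cells had 2.10 to 13. Basal keratinocyte-like cells had 54.0, 10.5, 32.7 and 34.8 CPM. Vascular endothelial-like cells, which held Pdgfb and Pdgfd, had at most 3.02 CPM of Pdgfc.

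**Figure D2:**
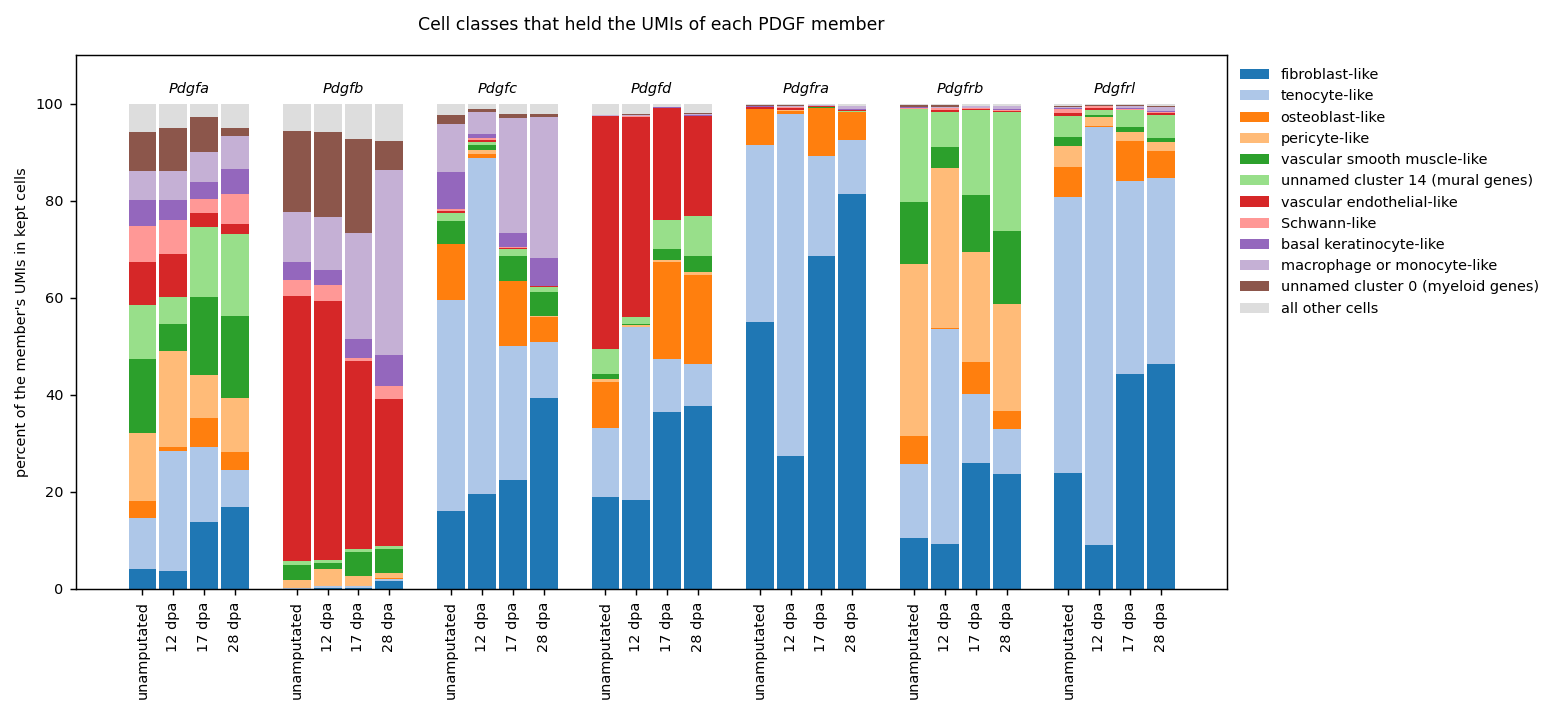
Percent of the UMIs of each gene in kept cells (y axis) that each cell class held in each library (x axis), as stacked bars. Pdgfra UMIs came almost wholly from fibroblast-like, tenocyte-like and osteoblast-like cells. The vascular endothelial-like share of Pdgfb was 54.7% in the unamputated library and 30.3% at 28 dpa, where the class held 12.3% and 3.81% of all UMIs. Tenocyte-like shares were highest at 12 dpa for Pdgfa, Pdgfc, Pdgfd and the 3 receptor genes. The class also made up its largest share of cells there, 24.7%.

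Fibroblast-like cells were made up of 4 clusters that differed in the PDGF genes they held. Pdgfra was present in all of them, at 348 to 383 CPM in cluster 11 (led by Gdf10 and C4b), 163 to 317 in cluster 17 (Ccn3 and Scara5), 163 to 290.3 in cluster 25 (Fgl2 and Itih5) and 281 to 325 in cluster 27 (Hs6st3 and Ccbe1). Clusters 11 and 25 had no level at 12 dpa, where they held 29 and 27 cells. Pdgfc was concentrated in cluster 27, at 131 to 208 CPM, and cluster 17, at 86.0 to 109, while clusters 11 and 25 had at most 23.0. Pdgfrb was 117 to 197 CPM in clusters 11 and 27 and 47.5 to 103 in clusters 17 and 25. The part of the mix of clusters in the class level of Pdgfc was not tested.

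**Figure D3:**
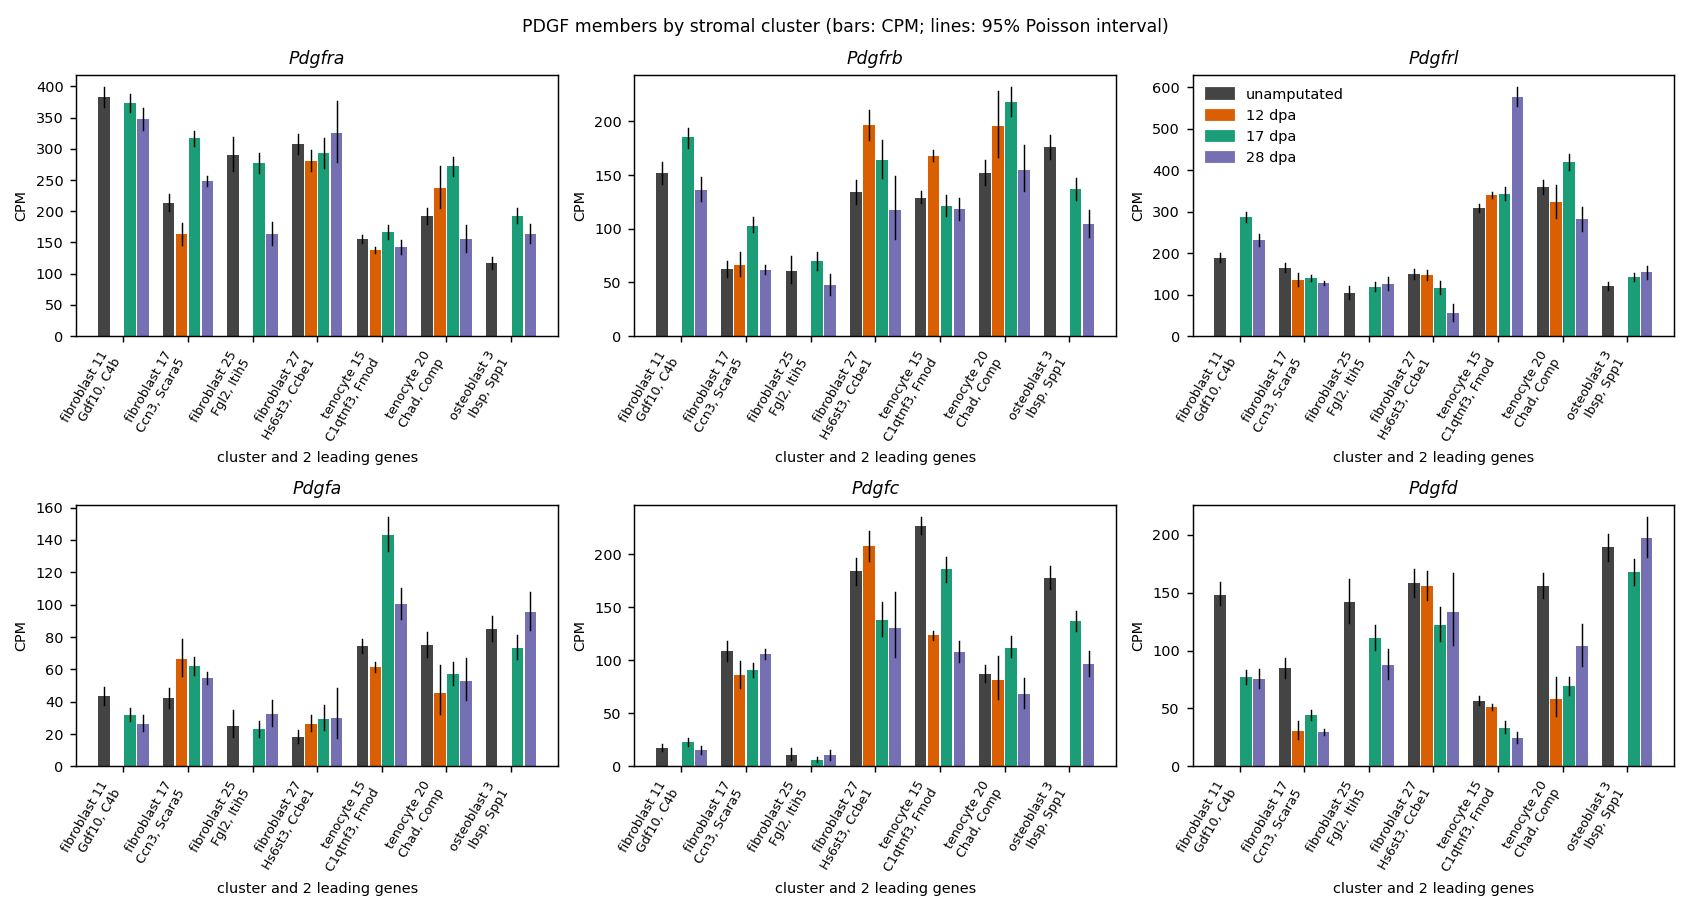
Level of 6 of the genes (y axis: CPM, from 0) in 4 fibroblast-like, 2 tenocyte-like and 1 osteoblast-like cluster (x axis, with 2 leading genes each), 1 bar per library with its 95% Poisson interval as a line. Bars are missing where a cluster had under 50 cells; Pdgfc was at most 23.0 in fibroblast-like clusters 11 and 25 and at least 86.0 in clusters 17 and 27.

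For each time after amputation, levels were set against the unamputated library to ask which genes differed in which cells. A pair of gene and class counted as called when the CPM differed by at least 2-fold (log2 ratio of at least 1 in size, with 1 CPM added to both), reached 10 CPM in the higher library, and had Poisson intervals that did not overlap. Intervals given beside a log2 ratio are exact 95% counting intervals of the ratio without the added CPM. At 12 dpa 6 of 48 pairs of member and named class that reached 10 CPM were called, 3 higher and 3 lower, where 3.95% of all pairs of gene and class were called. At 17 dpa 4 of 49 were called, 3 higher and 1 lower, against 3.60%, and at 28 dpa 5 of 49, 3 higher and 2 lower, against 7.86%. The 3 comparisons share the unamputated library.

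In the class where each gene was highest, none of the 21 comparisons was called, where 1.17% to 10.6% of all tested genes were called in the same classes and times. With shares that low, few or no calls among 21 are no result about the members. These log2 ratios ran from -0.38 to 0.10 for Pdgfra in fibroblast-like cells, from -0.088 to 0.23 for Pdgfrb in pericyte-like cells and from 0.025 to 0.66 for Pdgfrl in tenocyte-like cells. They ran from -0.18 to -0.050 for Pdgfa in vascular smooth muscle-like cells. In vascular endothelial-like cells they ran from -0.14 to 0.47 for Pdgfb and from -0.66 to -0.17 for Pdgfd, and for Pdgfc in tenocyte-like cells from -0.96 to -0.33. Within tenocyte-like clusters, Pdgfc at 28 dpa was -1.07 [-1.22 to -0.93] in cluster 15, which meets the call, and -0.35 in cluster 20. Pdgfra was called in no class. Across the named classes, the median log2 ratio of all genes of at least 20 CPM lay between -0.33 and -0.014, at -0.022, -0.043 and -0.14 in fibroblast-like cells at 12, 17 and 28 dpa.

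Pdgfd in fibroblast-like cells fell by 1.52 on the log2 scale at 28 dpa, from 132 CPM [2140 UMIs] to 45.3 [1081 UMIs]. The interval of the log2 ratio was -1.65 to -1.43, and 10.6% of the genes tested in these cells were called at that time, 7.78% in the lower direction. At 12 and 17 dpa the log2 ratios were -0.30 and -0.80. Within clusters at 12 dpa it was -1.43 [-1.87 to -1.08] in cluster 17, which meets the call, and -0.011 in cluster 27. Clusters 11 and 25 had no level there. Within clusters at 28 dpa the level went from 84.7 to 29.5 CPM in cluster 17, from 148 to 75.8 in cluster 11, from 142 to 87.6 in cluster 25 and from 158 to 133 in cluster 27. All 4 were lower, and cluster 17 alone passed 2-fold. Cluster 17 held 191 of 865 fibroblast-like cells in the unamputated library and 1413 of 2410 at 28 dpa. With the 4 clusters given equal weight the log2 ratio was -0.70, which is not a call. Of fibroblast-like cells thinned to 2000 UMIs, Pdgfd was found in 18.5% [16.0 to 21.3] in the unamputated library and 8.03% [6.96 to 9.20] at 28 dpa. Before thinning these shares were 48.8% and 22.8%. The 7 osteoblast markers summed to 303, 404, 121 and 89.1 CPM in fibroblast-like cells of the unamputated, 12, 17 and 28 dpa libraries, with 7, 5, 7 and 7 detected and Bglap and Dmp1 at 0 at 12 dpa. The 10 vascular endothelial markers summed to 52.2, 71.3, 71.9 and 70.5 CPM. Their part in the result was not tested.

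Pdgfc in basal keratinocyte-like cells was lower at 12 dpa, at 10.5 CPM [44 UMIs] against 54.0 [670 UMIs], a log2 ratio of -2.26 [-2.84 to -1.93] in a class where 2.51% of tested genes were called. It was lower in both clusters of the class, from 52.2 to 10.4 CPM in cluster 2 and from 59.1 to 10.5 in cluster 8. At 17 and 28 dpa the levels were 32.7 and 34.8 CPM, with log2 ratios of -0.71 and -0.62. The unamputated library was the highest and the 12 dpa library, the one without cells called male, the lowest. The sum of the 5 basal keratinocyte markers in this class was 19431, 19876, 20367 and 21098 CPM, and that of the 6 suprabasal keratinocyte markers 2724, 3455, 3670.2 and 4169. The 10 fibroblast markers summed to 203, 485, 538 and 569 CPM, and the 12 macrophage or monocyte markers to 32.9, 25.2, 88.1 and 88.4. Their part in the result was not tested.

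Schwann-like cells held 3 of the calls. Pdgfb was 14.5 CPM [13 UMIs] at 17 dpa against 55.0 [196 UMIs], a log2 ratio of -1.85 [-2.86 to -1.12], while the 12 and 28 dpa libraries, at 66.9 and 54.7 CPM, were close to the unamputated. Pdgfrb was 7.85 CPM [28 UMIs] in the unamputated library, 30.9 [55 UMIs] at 12 dpa, 24.5 [22 UMIs] at 17 dpa and 14 [12 UMIs] at 28 dpa. Its log2 ratios were 1.85 [1.30 to 2.69] and 1.53 [0.77 to 2.5] at 12 and 17 dpa. Called genes made up 2.68% of those tested in this class at 12 dpa and 5.22% at 17 dpa. The 8 pericyte markers, of which Pdgfrb is not one, summed to 218, 229, 243 and 338 CPM in Schwann-like cells, with 6 to 7 of 8 detected and Abcc9 or Kcnj8 or both at 0 in each library. The 8 vascular smooth muscle markers summed to 33.4, 35.4, 76.9 and 59.3 CPM, with 7 of 8 detected and Cnn1 or Des at 0, and the 10 vascular endothelial markers to 12.9, 30.9, 40.1 and 18.6, with 9, 9, 9 and 5 detected and Tie1 or Vwf among those at 0. The 10 fibroblast markers summed to 9283, 7564, 10049.6 and 9771 CPM with all 10 detected, and the 7 Schwann markers to 3950.3, 3227, 8354 and 6398. The part of these in the result was not tested. At 17 dpa cluster 26, the main Schwann-like cluster, held 10 of the 22 Pdgfrb UMIs, at 14.3 CPM against 8.08, a log2 ratio of 0.75 [-0.39 to 1.91] that is not a call. At 12 dpa the ratio in that cluster was 1.81 and a call. Without doublet removal the Pdgfrb log2 ratios were 0.60 at 12 dpa and 0.55 at 17 dpa, which are not calls.

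In pericyte-like and vascular smooth muscle-like cells the calls were at levels of at most 26.0 CPM and at 12 dpa. Pdgfd in vascular smooth muscle-like cells was 6.15 CPM [6 UMIs] at 12 dpa against 26.0 [125 UMIs], a log2 ratio of -1.92 [-3.56 to -0.92], and was 37.6 and 34.3 CPM at 17 and 28 dpa. Over 15 alternatives of processing the 12 dpa ratio ran from -3.65 to -1.06, and 14 kept the call. In these cells the 7 osteoblast markers summed to 268, 202, 257 and 337 CPM in the unamputated, 12, 17 and 28 dpa libraries, with 5, 3, 7 and 7 detected and Bglap, Bglap2, Ibsp and Sp7 at 0 at 12 dpa. The 10 vascular endothelial markers summed to 81.7, 154, 67.2 and 43.4 CPM, and the part of both lists in the result was not tested. Pdgfd in pericyte-like cells was 3.38 CPM [13 UMIs] against 10.8 [67 UMIs], a log2 ratio of -1.43 [-2.66 to -0.81], and was 9.03 and 7.91 CPM later. Over 15 alternatives the ratio ran from -2.79 to -0.92, and 13 kept the call. The value of -0.92, with 5 CPM added in place of 1, is not a call. In cluster 14, which as an unnamed cluster is not among the pairs counted, Pdgfd was 51.4 CPM [58 UMIs] at 12 dpa against 119.7 [569 UMIs], a log2 ratio of -1.20 [-1.64 to -0.83] that meets the call, where 3.20% of tested genes were called. It was 97.4 and 81.3 CPM at 17 and 28 dpa. Pdgfc in pericyte-like cells was 13 CPM [50 UMIs] at 12 dpa against 2.10 [13 UMIs], a log2 ratio of 2.17 [1.73 to 3.63], but it turned to -0.49 with a looser and -0.11 with a stricter filter on cells. The 7 tenocyte markers summed to 23.1 CPM in pericyte-like cells at 12 dpa and 8.08 in the unamputated library, with Kera at 0 in both, and their part in the result was not tested. In these classes 3.07% (vascular smooth muscle-like) and 2.93% (pericyte-like) of tested genes were called at 12 dpa.

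Pdgfa in macrophage or monocyte-like cells was 76.8, 101, 45.8 and 32.4 CPM in the unamputated, 12, 17 and 28 dpa libraries, and the log2 ratio at 28 dpa was -1.22 [-1.42 to -1.08], where 10.6% of the tested genes of the class were called. Within 2 of its 3 clusters the difference was smaller. Cluster 12 (led by Ms4a7) had 101 CPM in the unamputated library and 88.4 at 28 dpa, and cluster 24 (led by F13a1, Folr2 and Lyve1) 37.2 and 30.3. Cluster 13 (led by Ly6c2 and Plac8) had 1.34 CPM [2 UMIs] in the unamputated library, where it held 171 of 996 cells, and no level at 28 dpa, where it held 30. Of the Pdgfa UMIs, cluster 12 held 763 in the unamputated library and 48 at 28 dpa, against 68 and 392 in cluster 24. With clusters weighted equally the log2 ratio was -0.23, which is not a call. That weighting took clusters of at least 20 cells in both libraries, so cluster 13 was included. In the class, the 7 dendritic markers summed to 33.5, 41.6, 22.4 and 10.7 CPM with Xcr1 or Clec9a or both at 0 in each library. The 10 fibroblast markers summed to 268, 792, 504 and 689 CPM and the 6 osteoclast markers to 485, 622, 460.0 and 733, all detected. The part of these markers and of the mix of clusters in the class difference was not tested. Pdgfc in cluster 24 was 222, 73.8, 173 and 109 CPM and in cluster 12 was 60.7, 51.3, 96.3 and 59.0.

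The other 6 calls rested on few UMIs or stood just past the threshold. Pdgfa in suprabasal keratinocyte-like cells was 11.1 CPM [37 UMIs] at 12 dpa against 4.88 [50 UMIs], a log2 ratio of 1.03. It kept the call in 7 of 15 alternatives, and with a stricter filter on cells it turned to -0.34. The 5 basal keratinocyte markers summed to 5956, 7734, 5838 and 5973 CPM in these cells in the unamputated, 12, 17 and 28 dpa libraries, all 5 detected. In T or NK-like cells at 17 dpa there were 10 UMIs of Pdgfrb against 4 in the unamputated library, and 10 of Pdgfrl against 0, which allows up to 2.07 CPM there. In these cells the 8 pericyte markers summed to 28.9 CPM in the unamputated library and 768 at 17 dpa, with 8 and 7 of 8 detected, and the 10 fibroblast markers to 415 and 1879.7. The 7 tenocyte markers summed to 7.58 and 120.0 CPM, with 3 and 4 detected and Scx, Mkx and Kera at 0 in both. The log2 ratios were 2.55 for Pdgfrb and 4.46 for Pdgfrl. Without doublet removal the Pdgfrb log2 ratio was -0.83 and that of Pdgfrl 1.07, which are not calls. With the mean of single-cell CPM they were 1.65 and 3.22, and with male cells only Pdgfrb was 1.74, which are not calls either. In dendritic-like cells at 28 dpa there were 14 UMIs of Pdgfa against 30, a log2 ratio of 1.36 [0.42 to 2.41]. The Pdgfa call was lost with a stricter filter on cells (1.28), at Leiden resolution 2 (0.86) and with each cell named alone (0.53). In the same cells there were 7 UMIs of Pdgfrl against 1, a log2 ratio of 3.42 [2.40 to 10.85]. In B-lineage-like cells at 28 dpa there were 5 UMIs of Pdgfa against 1, a log2 ratio of 3.39 [1.02 to 9.75]. That call was lost with a looser filter (2.72), without doublet removal (1.47) and with each cell named alone (0.58). The fibroblast markers summed to 243 and 727 CPM in dendritic-like cells and 615 and 1928 in B-lineage-like cells of the unamputated and 28 dpa libraries. The 12 macrophage or monocyte markers summed to 3371 and 6640.4 CPM in dendritic-like cells, all 12 detected, and to 583 and 614 in B-lineage-like cells. The pericyte markers summed to 25.7 and 93.5 CPM in B-lineage-like cells, with 4 and 5 of 8 detected and Kcnj8 and Abcc9 at 0 in both, and to 21.4 and 13.1 in dendritic-like cells. The tenocyte markers summed to 5.43 and 13.1 CPM in dendritic-like cells, with 4 and 3 of 7 detected and Mkx and Kera at 0 in both. The part of these markers in the results was not tested. Called genes made up 3.34% (suprabasal keratinocyte-like, 12 dpa), 7.94% (T or NK-like, 17 dpa), 10.1% and 7.23% (dendritic-like and B-lineage-like, 28 dpa) of those tested.

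**Figure D4:**
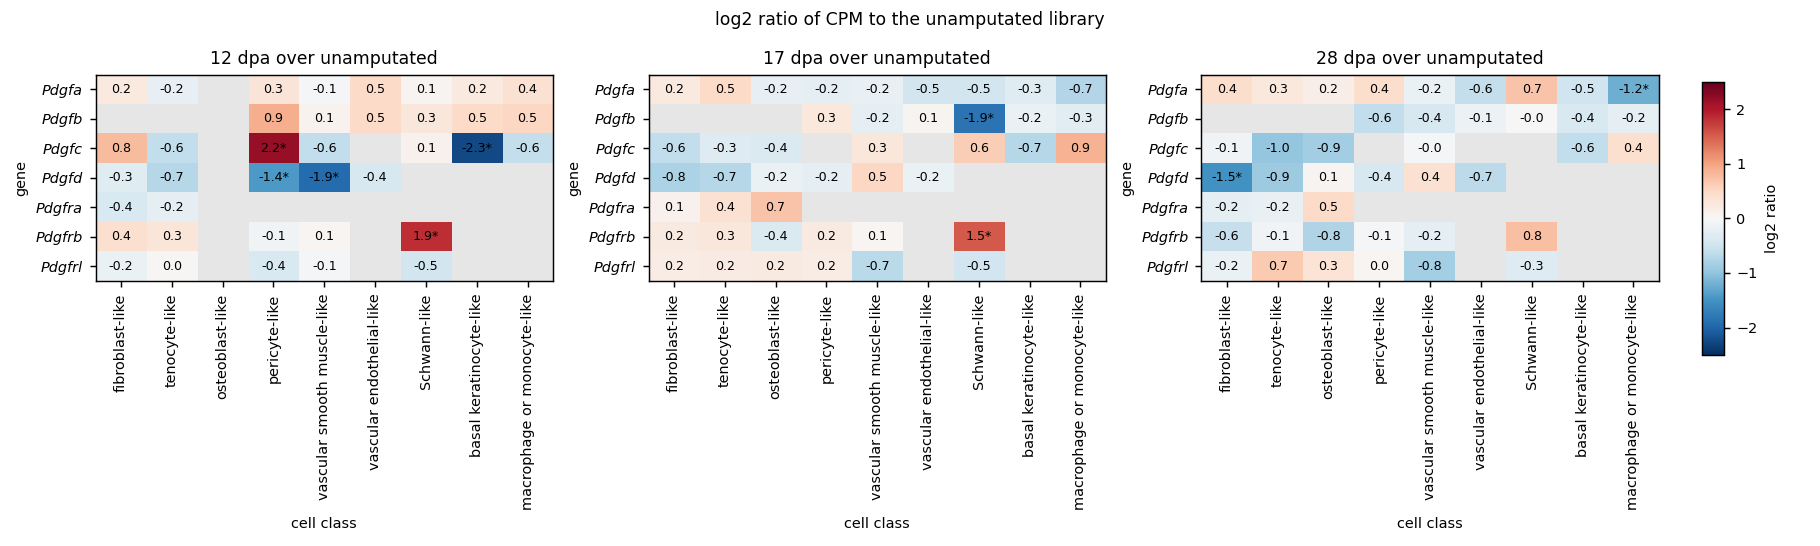
Log2 ratio of CPM (1 added) to the unamputated library for each gene (y axis) in 9 cell classes (x axis), 1 panel per time, with red for higher and blue for lower; a star marks a call and grey marks pairs under 10 CPM or classes under 50 cells. Of all pairs of gene and named class, 3.95%, 3.60% and 7.86% were called at 12, 17 and 28 dpa. The 9 stars stand outside the classes where each gene was highest. There 1.17% to 10.6% of all tested genes were called, so the lack of stars is no result about the members. Pdgfd in fibroblast-like cells is -1.5 at 28 dpa.

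The list of 65 other genes of the pathway covered ligand processing, binding to ligands or receptors, signal transduction, attenuation and early response. In fibroblast-like cells 61 of them reached 10 CPM, and few were called. At 12 dpa 4 were lower and none higher, where 4.16% of all tested genes were called. They were Plau (-1.70), which encodes the plasminogen activator urokinase, Fos (-1.51) and Egr1 (-1.08), transcription factors induced early by growth factors, and Spry2 (-1.18), a feedback inhibitor of receptor tyrosine kinases. At 17 dpa the chemokine gene Ccl2 alone was called, at 142 CPM against 69.8 (1.01), where 2.49% of genes were called.

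At 28 dpa 5 of the 61 genes were higher and 3 lower in fibroblast-like cells, where 10.6% of all tested genes were called, 2.84% higher and 7.78% lower. With both directions together, the share of the list called is near that of all genes. By direction, a larger share of the list was higher and a smaller share lower than among all genes, on few genes. The 4 largest were Pcsk6, a proprotein convertase (61.7 CPM against 17.6, log2 ratio 1.75), Ccl2 (224 against 69.8, 1.67), Ccnd1, which encodes cyclin D1 (53.1 against 17.7, 1.54), and Cspg4, the NG2 proteoglycan (80.3 against 27.1, 1.53). By role, 3 of 10 early response genes were higher, 1 of 6 ligand processing genes was higher and 1 lower, 1 of 5 binding genes was higher, and 1 of 30 signal transduction and 1 of 10 attenuation genes were lower. The 3 lower genes were Pcsk5, of ligand processing like Pcsk6 (69.5 CPM against 176, -1.33), Cblb of attenuation (-1.19) and Nck2 of signal transduction (-1.10). The median log2 ratio over the 61 genes was -0.12, -0.083 and -0.31 at 12, 17 and 28 dpa, beside -0.0074, -0.036 and -0.14 over all tested genes. In pericyte-like cells, where Pdgfrb was highest, 58 of the list were tested. None was called at 12 or 17 dpa, where 2.93% and 1.97% of all genes were called, and at 28 dpa 1 was higher and 4 lower, against 6.01%. Cluster 17 held 191 of 865 fibroblast-like cells in the unamputated library and 1413 of 2410 at 28 dpa, and cluster 27 held 248 and 139. The part of this mix in the pathway differences was not tested. Cspg4 is also 1 of the 8 pericyte markers. In fibroblast-like cells these 8 summed to 58.4, 83.9, 104 and 131 CPM in the unamputated, 12, 17 and 28 dpa libraries. Of these sums Cspg4 itself made up 27.1, 44.8, 47.0 and 80.3 CPM, so their rise is in part its own. The part of the other pericyte markers in the result was not tested.

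Patterns were compared over 54 sums of named class and library of at least 50 cells, which share libraries and classes. The correlations of log2(CPM + 1) are descriptions. Among the 7 genes, Pearson's r was highest for Pdgfrb with Pdgfrl (0.80) and Pdgfra with Pdgfrl (0.75), and lowest for Pdgfb with Pdgfra (-0.61). Among 12291 other genes, the patterns most like Pdgfra were those of Dpep1 (0.952), Cpz and Hoxd13, and those most like Pdgfrb were Cacna1c (0.964), Gpr176 and Adamts2. Pdgfrl was most like Ccdc80 (0.940), Bicc1 and Pcolce. Of the ligands, Pdgfa was most like Cyb5r3 (0.885), Pelo and Frmd4a, and Pdgfd most like Zfp521 (0.892), Cped1 and Zhx3. The nearest genes were less alike for Pdgfb, with Rasa4 (0.781), Ehd4 and Itprid2, and for Pdgfc, with Oat (0.767), Ak1 and Gm41724.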

How the data were processed

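Each library's deposited matrix holds raw UMI counts, whole numbers per gene and barcode. The submitters' processing notes name Cell Ranger 7.1.0 and the build mm10. The annotation and cell-calling settings are not given in the sources used here. Of 32285 gene IDs, 32235 were found in GENCODE M21 (GRCm38).

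A barcode was kept with 500 or more genes, 1000 or more UMIs and a mitochondrial share of no more than 10%. The highest-scoring barcodes by Scrublet were removed as doublets at 0.8% per 1000 barcodes (7.05% to 12.8% of a library). Libraries were clustered together in scanpy 1.11.5 (10000 UMIs per cell, 2000 variable genes, 30 components, 15 neighbours, Leiden resolution 1). Clusters were named from 181 markers of 27 classes, of which Krt85 is not in the files. A name needed 3 markers in at least 25% of cells and 10 leading genes without more markers of another class. A cluster with no own marker among these 10 also stayed unnamed if most of its markers were not detected (cluster 29). The same held if its cells were shallow in UMIs (cluster 16). The clusters had been seen when this rule was written.

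UMIs were summed per class and library. Shares carry Clopper-Pearson, sums Poisson and ratios exact binomial 95% intervals. For a count of 0, the upper limit is 3 counts. UMIs of 1 cell are not independent samples, so intervals cover counting error only. The genes, marker and pathway lists were chosen with earlier results of these data known. Other genes named were, for each member, the 3 with the highest correlation (at least 20 CPM in 1 sum) and, in fibroblast-like cells, up to 4 called pathway genes per comparison with the largest ratio. Clusters within classes are described besides. The summing and call steps were tested on simulated data. Alternatives covered cell filters, doublets, resolution, naming, scaling, averaging, pseudocounts, minimum levels and sex of cells.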

Additional observations from a re-analysis of the deposited data

Results flagged for a closer look

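In 3 places a gene moved one way in 1 cell class and the opposite way in another at the same time. The differences between classes were not tested, since each time had 1 library. Pdgfc at 12 dpa had a log2 ratio to the unamputated library of -2.26 in basal keratinocyte-like cells and 2.17 in pericyte-like cells. The pericyte-like ratio was -0.49 with a looser and -0.11 with a stricter filter on cells, so that under both filters the directions were the same. Pdgfa at 28 dpa had -1.22 in macrophage or monocyte-like cells, 3.39 in B-lineage-like cells (5 UMIs against 1) and 1.36 in dendritic-like cells (14 UMIs against 30). With each cell named alone the B-lineage-like ratio was 0.58 and the dendritic-like 0.53, and neither was a call. With clusters weighted equally the macrophage or monocyte-like ratio was -0.23, which is not a call.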

How the results depend on the processing

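The numbers of called pairs at 12, 17 and 28 dpa were 6, 4 and 5. They became 11, 7 and 9 with no minimum level and 1, 1 and 2 with a minimum of 50 CPM, by construction. Without doublet removal 17 dpa gave 7 and 28 dpa 10, with each cell named alone 17 and 8, and 28 dpa gave 10 at Leiden resolution 2 and 3 with clusters of a class weighted equally. The mean of single-cell CPM gave 2 at 17 dpa. Of the alternatives chosen after seeing the data, at least 20 UMIs in the higher library gave 2 at 17 and 2 at 28 dpa, and counting unnamed clusters as classes gave 10 at 12 dpa. The class where a gene was highest was the same for 7 of 7 genes, except for 6 of 7 under the mean of single-cell CPM and under equal cluster weights, where Pdgfc was highest in osteoblast-like cells. Reversed ratios were Pdgfc in pericyte-like cells at 12 dpa (-0.49 looser, -0.11 stricter cell filter), Pdgfa in suprabasal keratinocyte-like cells at 12 dpa (-0.34, stricter filter) and Pdgfrb in T or NK-like cells at 17 dpa (-0.83, no doublet removal). Pdgfc in basal keratinocyte-like cells at 12 dpa stayed called in 15 of 15 alternatives (-2.36 to -1.22), Pdgfb in Schwann-like cells at 17 dpa in 16 of 16 (-1.96 to -1.29) and Pdgfd in fibroblast-like cells at 28 dpa in 15 of 16 (-1.54 to -0.70). These counts include settings that could not remove a call, namely no minimum level and unnamed clusters counted as classes. Pdgfa in macrophage or monocyte-like cells at 28 dpa lost its call with a looser filter (-0.72) and equal cluster weights (-0.23). Of 2269 log2 ratios recomputed for 146 results, 1901 moved by less than their counting interval, 364 by more and 4 reversed. Only ratios that were calls could count as reversed, so sign changes of other ratios are among the 1901 and the 364. The settings of minimum level, of at least 20 UMIs and of unnamed clusters leave each ratio unchanged and add to the 1901 by construction. Apart from the settings named as acting by construction, the cause was not tested. Naming cells alone gave the same class for 85.7% of cells. No paired analysis was possible because each group held 1 library. Classes of few UMIs (lymphoid and dendritic-like) limit what levels under about 10 CPM can show.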
